A study of Homo sapiens with 6 samples.

Results

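Interferon-stimulated genes are the transcripts that cells switch on after an interferon binds its receptor. The receptor's kinases then phosphorylate STAT proteins. STAT2 acts with IRF9 in a complex that binds the interferon-stimulated response element, and other STAT complexes bind the gamma-activated site. The products block viral entry, RNA and assembly, attach the ubiquitin-like protein ISG15 to other proteins, and feed back on the pathway. In promyelocytic leukaemia cells several of them are also known to rise when retinoic acid drives maturation. A set of 39 such genes was followed here by symbol, out of 61806 genes in the count table, and all 39 were in the table and passed the filter on low counts.

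RNA came from NB4, a cell line established from acute promyelocytic leukaemia, and all libraries carry the same batch label. Of the 6 poly(A) libraries, 3 were from cells transduced with a lentivirus that carries CD69, a lectin of the activated leukocyte surface, and 3 from vector control cells whose genotype is labelled wild-type. No drug was given to either group, and each group may stand for a single transduced population, so p-values measure only the spread between libraries. Total counts per library lay between 51543550 and 57463020. CD69 itself held 80.4, 81.9 and 70.6 CPM (counts scaled to library size) in the controls and 98.3, 99.1 and 95.7 CPM in the overexpressing libraries. That is a log2 fold change of 0.33 (SE 0.07, adjusted p = 0.0153), and the call was lost without overexpressing replicate 2 (adjusted p = 0.0618). Of the 9 promyelocyte markers, MPO was close to absent at 0.518 to 1.45 CPM, and the other markers were at 12.9 CPM or more in every library. PRTN3, ELANE and AZU1 were called higher in the overexpressing libraries (log2 fold changes of 2.4, 1.92 and 0.88), and the other 6 markers were not called. That is 33.3% called, beside 24.1% of all genes.

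The 39 genes did not move as a block. Together they took 815, 830.3 and 849.8 CPM across the controls and 841, 806 and 838 CPM in the overexpressing libraries, so the groups overlapped in their summed level. This sum is weighted to a few abundant members. In control replicate 1, MX2 held 151 CPM, IFITM2 127 CPM and BST2, which was called higher, 124 CPM. The overlap therefore says little about the less abundant members. Of the 39, 8 were higher and 6 lower (quasi-likelihood test of edgeR, adjusted p under 0.05 by Benjamini-Hochberg). That is 20.5% and 15.4%, beside 14.2% higher and 9.94% lower among all 19485 genes tested, and 35.9% called in either direction beside 24.1%. The difference between these shares was not tested. The median log2 fold change was -0.31, with 17 above 0 and 22 below, against a median of 0.006 over all genes. For 25 members (64.1%) the 3 libraries of one group lay above all 3 of the other, which held for 42.3% of all genes. The largest rises were in SAMD9, OAS2 and IFI35, each over 4-fold, and the largest fall was in XAF1. The counts of calls depended on the libraries and on the method. With no filter on low counts 3 members were higher, and DESeq2 gave 11 lower. With 1 library left out, 3 to 5 members were higher (3 without control replicate 1 or overexpressing replicate 1, 4 without overexpressing replicate 2, and 5 without control replicate 2, control replicate 3 or overexpressing replicate 3). The number lower was 10 without overexpressing replicate 1 and 9 without control replicate 3.

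**Figure D1:**
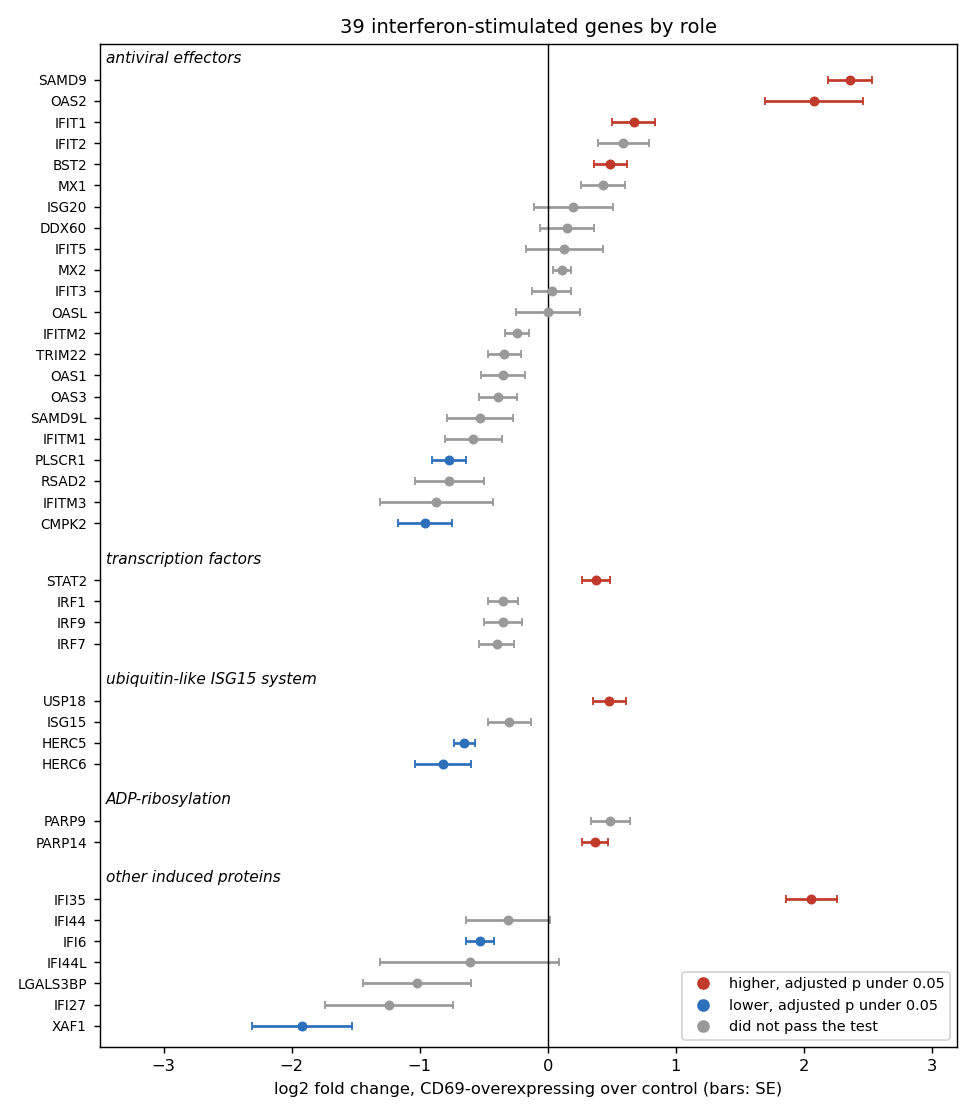
Log2 fold change of each of the 39 genes, overexpressing over control, grouped by role, with bars for the SE and colour for the test. SAMD9, OAS2 and IFI35 lie above 2, XAF1 lies at -1.92, and most other members lie between -1 and 1.

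Promoter sequence was compared next. The members were chosen as interferon-stimulated, and interferon acts on such genes through the response element. An excess of its motif over all promoters therefore follows in part from the choice of list. Of the 39, 31 had an entry in the RefSeq promoter table (GRCh38.p14), and the higher members OAS2 and USP18 had none. The 250 bases before the start were searched for the interferon response motif, here GAAA, then 2 bases of any kind, then GAAA, on either strand (TTTC at both ends when read from the other strand), with overlapping matches counted. It was found in 19 of the 31 (61.3%) and in 839 of all 27305 promoters (3.07%). By direction it was found in 4 of 6 higher members, 3 of 6 lower members and 12 of 19 that did not pass the test. The gamma site motif TTCNNNGAA, which reads the same on both strands, was in 9 of 31 members (29%) and in 6.78% of all promoters, and by direction in 3 of 6 higher members, 0 of 6 lower members and 6 of 19 others. The stretches below are those of called members whose matches lie outside the annotated gene. They are shown because 3 rose and 2 fell with the same kind of motif, written 5′ to 3′ on the gene's strand with the matches in capitals.
SAMD9 (higher; chr7:93118072-93118151, minus strand): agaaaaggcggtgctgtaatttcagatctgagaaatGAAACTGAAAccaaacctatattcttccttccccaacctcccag
IFIT1 (higher; chr10:89392478-89392545, plus strand): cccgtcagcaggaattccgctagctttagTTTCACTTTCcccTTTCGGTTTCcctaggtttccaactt
BST2 (higher; chr19:17405714-17405793, minus strand): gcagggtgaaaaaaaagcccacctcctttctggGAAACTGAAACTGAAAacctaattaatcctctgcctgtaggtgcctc
HERC5 (lower; chr4:88456984-88457063, plus strand): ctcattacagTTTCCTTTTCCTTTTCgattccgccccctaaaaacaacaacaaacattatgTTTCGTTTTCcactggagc
IFI6 (lower; chr1:27672273-27672352, minus strand): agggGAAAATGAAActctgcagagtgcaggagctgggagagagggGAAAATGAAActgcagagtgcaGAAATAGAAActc
The BST2 stretch holds 2 matches that overlap, and those of HERC5 and IFI6 hold 3 each. SAMD9L, the neighbour of SAMD9, had no match in its 250 bases, and neither had IFI35, STAT2, CMPK2, HERC6 or XAF1. A match describes these letters and does not show that a factor binds.

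Among the 22 antiviral effectors, 4 were higher, 2 lower and 16 did not pass the test, so 27.3% were called, near the 24.1% of all genes. SAMD9, a large cytoplasmic protein that restricts poxviruses and is mutated in inherited marrow failure, held 2.61, 3.53 and 2.41 CPM across the controls. In the overexpressing libraries it held 14.6, 15.0 and 14.4 CPM. The overexpressing libraries thus lay far above every control and close to each other, a 5.14-fold rise (log2 fold change 2.36, SE 0.17, adjusted p = 0.000112). SAMD9L (GRCh38 chromosome 7, 93130055 to 93148369, minus strand) lies 12 kb from SAMD9 (93099513 to 93118023, minus strand) and is a close relative of it. It held 12.9, 13.6 and 7.21 CPM across the controls and 8.23, 9.03 and 6.09 CPM with CD69, and did not pass the test (adjusted p = 0.19). In the controls SAMD9L was the more abundant of the pair per length (1.57 against 0.415 CPM per kb of merged exons), and in the overexpressing libraries SAMD9 was (2.14 against 1.09 CPM per kb).

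OAS2 showed a similar split from its neighbours. The OAS enzymes sense double-stranded RNA and make the messenger that activates RNase L, and OAS1, OAS3 and OAS2 lie side by side on chromosome 12 (OAS2 from 112978395 to 113011723). OAS2 held 0.518, 1.29 and 0.66 CPM across the controls and 3.14, 4.36 and 2.92 CPM in the overexpressing libraries, with no overlap. It rose 4.22-fold (log2 fold change 2.08, SE 0.38, adjusted p = 0.00613), and the call was lost with overexpressing replicate 1 alone against the controls (adjusted p = 0.0946). OAS1 had means of 6.15 ± 0.718 and 4.82 ± 0.457 CPM and OAS3 of 35.8 ± 3.61 and 27.4 ± 5.1 CPM (SD, n = 3, control first). Neither passed the test (adjusted p = 0.173 and 0.0988). OASL, the relative without the enzyme activity, was level at 1.92 CPM in both groups.

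**Figure D2:**
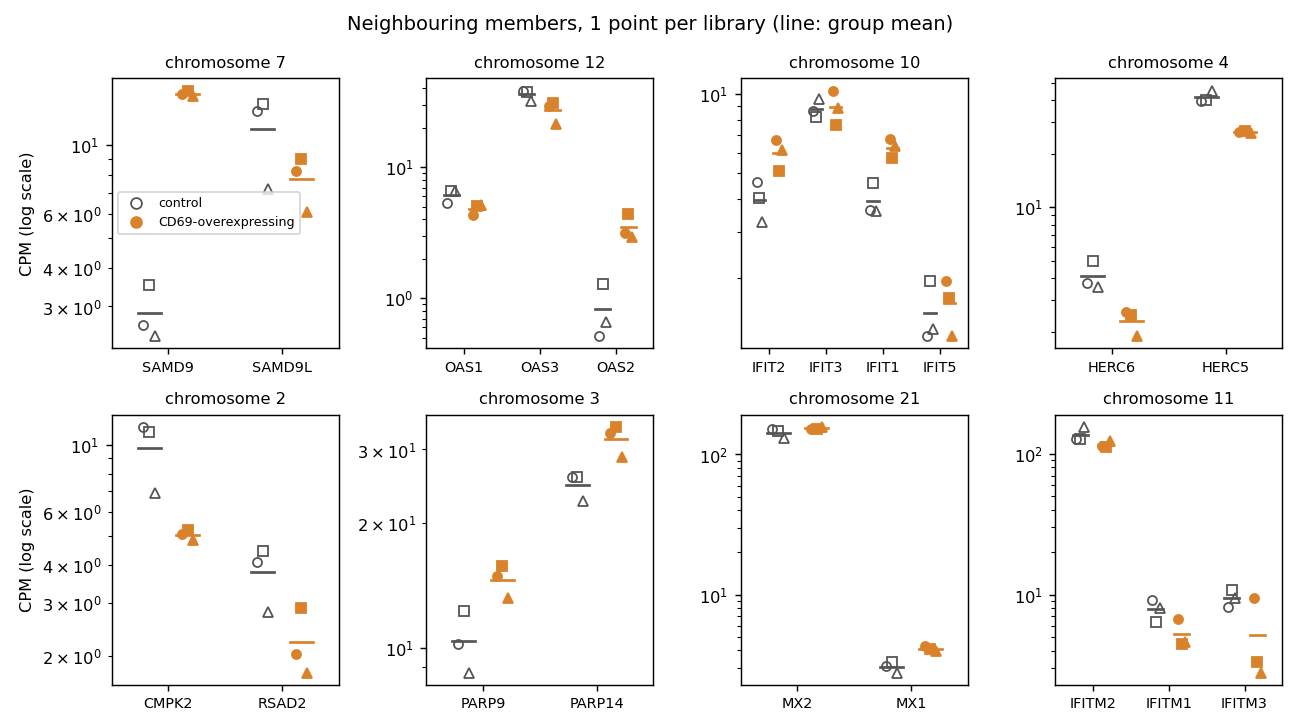
CPM on log axes of members that lie next to each other, 1 panel per chromosome and 1 point per library, with circle, square and triangle for replicates 1, 2 and 3 and a line for the group mean. SAMD9 and OAS2 lie above every control while SAMD9L, OAS1 and OAS3 do not, and HERC5 and HERC6 lie below every control together.

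The 18 pairs of members that lie within 250 kb of each other were compared by the log2 ratio of the pair within each library, which does not depend on the scaling. The choice of this comparison was made after seeing the data. SAMD9 over SAMD9L stood at -2.3, -1.94 and -1.58 in the controls and 0.82, 0.73 and 1.24 with CD69, a difference of 2.88. OAS1 over OAS2 and OAS3 over OAS2 fell by 2.52 and 2.57 on the log2 scale. These 3 shifts were the largest of the 18. In all, 7 pairs did not overlap between the groups, each with an exact permutation p of 0.1 (two-sided), the smallest that 3 against 3 libraries can give, and an adjusted p of 0.257 over the 18. No pair passed the threshold, which this number of libraries cannot reach. The 7 are not separate observations, since the IFIT pairs among them share genes and both OAS pairs contain OAS2. Single genes did not overlap for 42.3% of all genes, and the share among neighbouring pairs elsewhere was not counted.

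The IFIT proteins bind viral RNA at its 5′ end, and their genes lie together on chromosome 10. IFIT1 held 3.62, 4.58 and 3.6 CPM across the controls and 6.73, 5.73 and 6.35 CPM with CD69, a 1.59-fold rise (log2 fold change 0.67, SE 0.17, adjusted p = 0.0264). IFIT2 had nearly the same levels, 3.98 ± 0.671 against 5.98 ± 0.821 CPM (SD, n = 3), but did not pass the test (adjusted p = 0.0659). IFIT3 and IFIT5 had log2 fold changes of 0.03 and 0.13, and their groups overlapped. The IFIT1 call was lost on leaving out control replicate 1 or 3, or any overexpressing library (adjusted p = 0.052 to 0.0968), and with no filter (0.0503).

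BST2, or tetherin, holds budding virions at the cell surface and was the most abundant member per length. It held 124, 124 and 165 CPM across the controls and 186, 179 and 214 CPM with CD69, a 1.4-fold rise (log2 fold change 0.49, SE 0.13, adjusted p = 0.0286). Control replicate 3 was the highest control and overexpressing replicate 3 the highest of its group. The BST2 call was lost on leaving out control replicate 1 or 2, or any overexpressing library (adjusted p = 0.0602 to 0.127), and with no filter (0.0689). MX1 and MX2, GTPases that trap viral nucleocapsids, had log2 fold changes of 0.43 and 0.11 and did not pass the test, although the overexpressing libraries lay above the controls for both.

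PLSCR1 and CMPK2 fell. PLSCR1, a phospholipid scramblase that limits viral entry, held 24.5, 26.1 and 20.4 CPM across the controls and 13.5, 12.5 and 15.6 CPM with CD69 (log2 fold change -0.77, SE 0.13, adjusted p = 0.00454). CMPK2, a mitochondrial nucleotide kinase, held 11.4, 11 and 6.92 CPM across the controls and 5.05, 5.2 and 4.84 CPM with CD69 (log2 fold change -0.96, SE 0.21, adjusted p = 0.0133). Its neighbour RSAD2, the viral inhibitor viperin, had means of 3.78 ± 0.863 and 2.22 ± 0.582 CPM (SD, n = 3) and a log2 fold change of -0.77 that did not pass (adjusted p = 0.0792). The exons of the pair overlap by 14 bases on opposite strands. Control replicate 3 was the lowest control for both genes. Without control replicate 1 or 2 the CMPK2 call was lost (adjusted p = 0.0547 and 0.0503), and without control replicate 3 RSAD2 was lower (adjusted p = 0.0429). With overexpressing replicate 1 alone, neither PLSCR1 (adjusted p = 0.0773) nor CMPK2 (adjusted p = 0.181) was called.

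The remaining effectors did not pass the test. TRIM22, a ubiquitin ligase, had means of 30.2 ± 4.74 and 23.9 ± 1.56 CPM (SD, n = 3), ISG20, an exonuclease of viral RNA, 1.96 ± 0.465 and 2.26 ± 0.702 CPM, and DDX60, a helicase, 7.81 ± 1.83 and 8.63 ± 1.23 CPM. IFITM2, which blocks viral fusion, was the second most abundant member per length, with 136 ± 15.6 and 116 ± 6.37 CPM, and IFITM1 held 7.86 ± 1.4 and 5.25 ± 1.25 CPM. The IFITM genes are near-identical and the annotation joins IFITM1 and IFITM2 in shared exons, so the split of counts among them is uncertain. TRIM22 and SAMD9L were lower without control replicate 3 (adjusted p = 0.00839 and 0.0283), and IFITM1 without overexpressing replicate 1 (adjusted p = 0.0317).

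**Figure D3:**
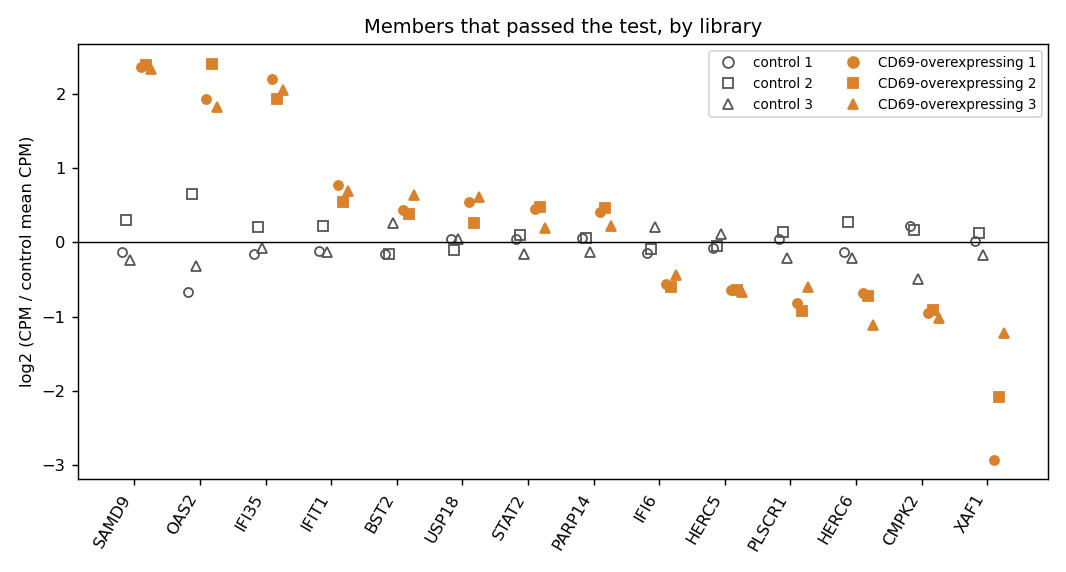
Log2 of CPM over the control mean in each library for the 14 members that passed the test, open symbols for controls and filled symbols for overexpressing libraries. All 3 overexpressing libraries lie on the same side of all 3 controls for each of the 14, with XAF1 the most spread among the overexpressing libraries.

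Of the 4 transcription factors of the list, STAT2 was higher and none was lower, so 25% were called, beside 24.1% of all genes. STAT2, a factor of the type I response, held 33.9, 35.3 and 29.7 CPM across the controls and 45.1, 45.9 and 37.6 CPM with CD69, a 1.3-fold rise (log2 fold change 0.38, SE 0.11, adjusted p = 0.0366). IRF9, which joins STAT2 in the same complex, went from 6.13 ± 0.34 to 4.8 ± 0.333 CPM (SD, n = 3), and IRF7, which amplifies interferon production, from 7.95 ± 0.881 to 6.01 ± 0.28 CPM. IRF1, a factor induced by interferon gamma, went from 15.1 ± 2.08 to 11.9 ± 0.0946 CPM. For these 3 factors every overexpressing library lay below every control, yet none passed the test (adjusted p = 0.129, 0.0824 and 0.0821). Groups that do not overlap, in either direction, were found for 42.3% of all genes. IRF9 shares exons with another gene and IRF1 overlaps genes on the opposite strand. The STAT2 call was lost on leaving out any control, or overexpressing replicate 1 or 2 (adjusted p = 0.0635 to 0.133), and with no filter (0.069).

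Among the 4 members of the ISG15 system, the ligases fell and the protease rose, so 75% were called, beside 24.1% of all genes. UBA7 and UBE2L6, enzymes of the same system outside the set, rose (log2 fold changes of 0.94 and 0.78). ISG15 is the ubiquitin-like tag, HERC5 the ligase that attaches it, HERC6 a related ligase, and USP18 the protease that removes it and also blocks the type I receptor. HERC5 held 39.5, 40.2 and 45.1 CPM across the controls and 26.6, 26.8 and 26.2 CPM with CD69, so the overexpressing libraries were nearly equal and all below the controls. Its log2 fold change was -0.65 (SE 0.08, adjusted p = 0.00104), and the call was lost with overexpressing replicate 1 alone (adjusted p = 0.0668). HERC6, 14 kb from HERC5 on chromosome 4, held 3.77, 4.99 and 3.55 CPM across the controls and 2.57, 2.48 and 1.9 CPM with CD69 (log2 fold change -0.82, SE 0.22, adjusted p = 0.0322). USP18 held 9.03, 8.16 and 9.01 CPM across the controls and 12.8, 10.5 and 13.3 CPM with CD69, a 1.4-fold rise (log2 fold change 0.48, SE 0.13, adjusted p = 0.0341). ISG15 itself held 12.5 ± 1.8 and 10.1 ± 1.78 CPM (SD, n = 3), its groups overlapped, and it did not pass the test (adjusted p = 0.236). The HERC6 call was lost on leaving out control replicate 1 or 2, or overexpressing replicate 2 or 3 (adjusted p = 0.0681 to 0.106), and with no filter (0.065). That of USP18 was lost on leaving out any control, or overexpressing replicate 1 or 3 (adjusted p = 0.0541 to 0.132), and with no filter (0.0642).

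The 2 members of ADP-ribosylation had similar fold changes. PARP14, which attaches ADP-ribose to proteins, held 25.8, 25.7 and 22.5 CPM across the controls and 32.9, 33.9 and 28.8 CPM with CD69, a 1.29-fold rise (log2 fold change 0.37, SE 0.1, adjusted p = 0.0292). PARP9, which works in a complex with the ubiquitin ligase DTX3L, held 10.2, 12.3 and 8.73 CPM across the controls and 14.9, 15.7 and 13.2 CPM with CD69 and just missed the threshold (log2 fold change 0.49, adjusted p = 0.0526). DTX3L starts beside PARP9 on the opposite strand, and it too had a log2 fold change of 0.41 and an adjusted p of 0.0526. The PARP14 call was lost on leaving out control replicate 1 or 2, or overexpressing replicate 1 or 2 (adjusted p = 0.0602 to 0.116), and with no filter (0.0514), while PARP9 was higher without control replicate 2 (adjusted p = 0.0396).

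Of the 7 other induced proteins, IFI35 rose and IFI6 and XAF1 fell, so 42.9% were called, beside 24.1% of all genes. IFI35, a leucine zipper protein that binds NMI, held 1.05, 1.36 and 1.11 CPM across the controls and 5.37, 4.47 and 4.88 CPM with CD69, a 4.18-fold rise with no overlap (log2 fold change 2.06, SE 0.2, adjusted p = 0.000377). IFI6, a small membrane protein that counters apoptosis, held 38.6, 39.8 and 49.0 CPM across the controls and 28.7, 27.9 and 31.4 CPM with CD69 (log2 fold change -0.53, SE 0.11, adjusted p = 0.0104). Without overexpressing replicate 2 the IFI6 call was lost (adjusted p = 0.0559), as with overexpressing replicate 1 alone (adjusted p = 0.153).

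XAF1, an antagonist of the caspase inhibitor XIAP, showed the largest fall of the set. It held 7.85, 8.44 and 6.91 CPM across the controls and 1.02, 1.83 and 3.31 CPM with CD69, so the control mean was 3.77-fold higher (log2 fold change -1.92, SE 0.39, adjusted p = 0.01). The overexpressing libraries were all lower than the controls but were spread in proportion to their level (1.16 CPM SD on a mean of 2.05). PRAL, a gene on the opposite strand, shares 2535 bases with the exons of XAF1, and how the counting treated strand is not stated. PRAL was at 0 counts in every library but overexpressing replicate 1, where it held 2.75 CPM.

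The 3 largest differences that did not pass the test were in IFI27, LGALS3BP and IFITM3, and all 3 followed a split among the overexpressing libraries. LGALS3BP, a secreted glycoprotein, held 15.3, 24.9 and 19.6 CPM across the controls, 17.4 CPM for overexpressing replicate 1 and 5.39 and 6.76 CPM for replicates 2 and 3. IFITM3, the endosomal member of its family, held 8.12, 10.8 and 9.53 CPM across the controls, 9.5 CPM for overexpressing replicate 1 and 3.32 and 2.8 CPM for replicates 2 and 3. IFI27, a mitochondrial protein, held 2.2, 2.64 and 2.89 CPM across the controls, then 2.09, 0.603 and 0.568 CPM. Replicate 1 thus sat with or near the controls for each of them, and replicates 2 and 3 sat well below. Without overexpressing replicate 1 all 3 genes were lower (log2 fold changes of -2.14 for IFI27, -1.72 for LGALS3BP and -1.64 for IFITM3, adjusted p = 0.00254, 0.00282 and 0.00182).

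Some markers of other cell types moved with this split. The keratin KRT8 held 55.6, 58.5 and 57.4 CPM across the controls, 56.9 CPM for overexpressing replicate 1 and 14.3 and 11.3 CPM for replicates 2 and 3, and KRT18 held 23.8 to 28.3, then 25.6, 4.7 and 5.33 CPM. The 8 fibroblast and epithelial markers together held 113 to 127 CPM across the controls, 117 CPM for overexpressing replicate 1 and 53.7 and 59.1 CPM for replicates 2 and 3. KRT8 and KRT18 made up most of this sum in the controls and in overexpressing replicate 1, and the list did not move as one. KRT5 held 9.78 to 11.5 CPM in control libraries, 10.5 CPM for overexpressing replicate 1 and 14.9 and 32.2 CPM for the other two, and CDH1 was also lowest in replicate 1 of that group (1.23, 1.81 and 2.25 CPM). COL3A1 and DCN were highest in overexpressing replicate 2 (3.72 and 1.22 CPM), and DCN was at 0 in all controls. None of the 7 tested passed the test between groups. Among the 6 monocyte markers, VCAN held 18.4 to 20.5 CPM in control libraries, 22 CPM for overexpressing replicate 1, then 3.23 and 3.82 CPM. CD14 held 1.87 CPM in each control, then 1.91, 0.568 and 0.764 CPM. This list did not move as one either. LYZ held 282 to 289 CPM in control libraries, then 306, 307 and 326 CPM, and CSF1R held 1.29 to 1.89, then 1.95, 1.9 and 1.66 CPM. FCGR3A and S100A12 were detected only in overexpressing replicate 2 (0.248 and 0.0709 CPM). The 9 B cell markers together went opposite to VCAN and CD14. They held 17.7 to 23.3 CPM across the controls, 24.4 CPM for overexpressing replicate 1 and 101 and 98.5 CPM for replicates 2 and 3. In bulk RNA, fewer cells of a type and less RNA per cell cannot be told apart, and the part of these markers in the values of LGALS3BP, IFITM3 and IFI27 was not tested. SAMD9, OAS2 and IFI35 were raised to a similar level in replicate 1 and in replicates 2 and 3. IFI44 and IFI44L, chromosome 1 neighbours of unsure function, were low at 1.6 ± 0.253 against 1.29 ± 0.483 and 0.414 ± 0.146 against 0.27 ± 0.237 CPM (SD, n = 3) and did not pass. IFI44L showed the same split at a low level, with 0.535 CPM for overexpressing replicate 1 and 0.195 and 0.0784 CPM for replicates 2 and 3. These were 30, 11 and 4 counts, beside 14 in control replicate 1, so the split of IFI44L is uncertain. XAF1 showed the opposite split. LGALS3BP, IFITM3, IFI27, IFI44L and XAF1 were the 5 members that differed at least 2-fold between overexpressing replicate 1 and the mean of replicates 2 and 3.

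**Figure D4:**
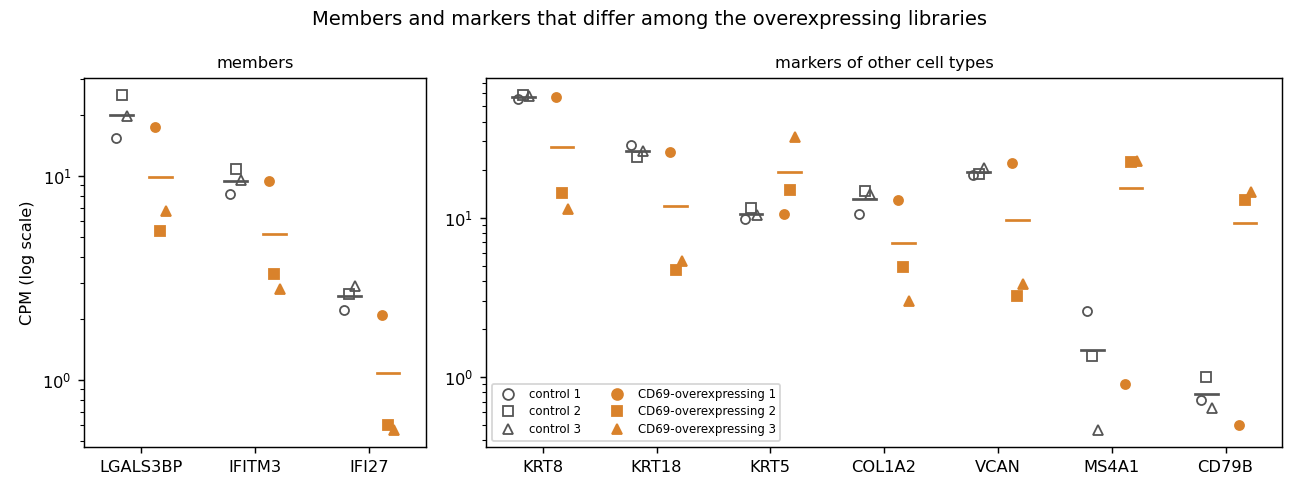
CPM on log axes in each library for LGALS3BP, IFITM3 and IFI27 (left) and for 7 markers of other cell types (right), with lines for group means. The left genes and KRT8, KRT18, COL1A2 and VCAN are low in overexpressing replicates 2 and 3, where KRT5 and the B cell genes MS4A1 and CD79B are high.

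Levels differed far more between members than between groups. In the controls BST2 held 123 CPM per kb of merged exons, IFITM2 held 88.4 and IFI6 held 49.1, while OAS2 held 0.131 and IFI44L 0.0405 CPM per kb. SAMD9, OAS2 and IFI35, the strongest rises, all started below 1 CPM per kb and stayed at 2.14, 0.555 and 2.49 CPM per kb with CD69. Merged exons include those of every annotated transcript, so the level of a gene with long rare exons is understated.

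**Figure D5:**
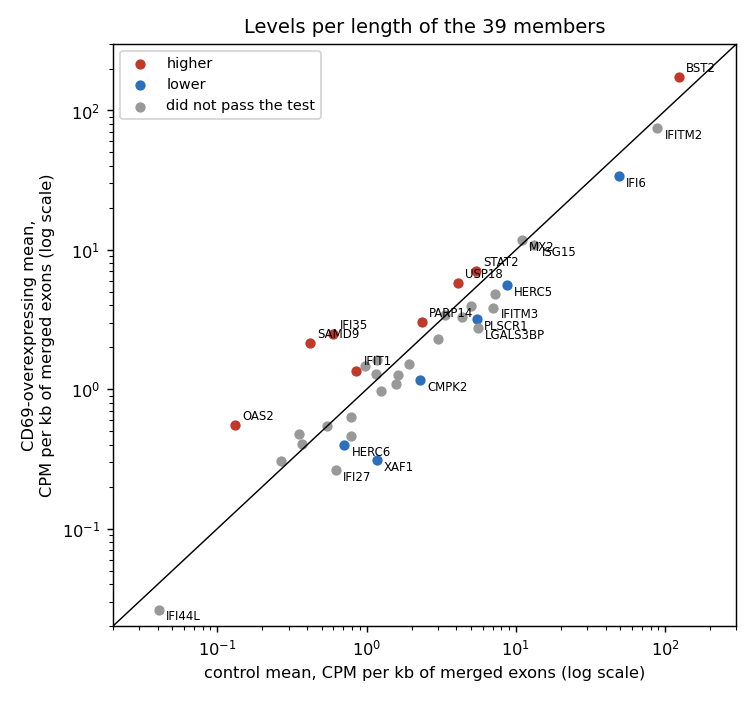
Mean CPM per kb of merged exons in control (x) and overexpressing (y) libraries on log axes, 1 point per member, with a diagonal for equal levels. SAMD9, OAS2 and IFI35 rise from below 1 CPM per kb, and BST2, IFITM2 and IFI6 are the most abundant.

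The interferons themselves were barely detected. Of 21 ligand genes, 13 had no count in any library, none passed the low-count filter, and the highest value of any ligand in any library was 4 counts, which may stand for a single fragment. A value of 0 allows up to 3 fragments, which at 4 counts each are 12 counts, or 0.211 to 0.235 CPM per library (counting error only). The receptor subunits and kinases were expressed, and of 9 measured 2 were higher and 1 lower (22.2% and 11.1%, beside 14.2% and 9.94% of all genes). IFNGR1, a subunit of the gamma receptor, had means of 75.4 ± 3.63 and 63.3 ± 3.92 CPM (log2 fold change -0.25, adjusted p = 0.0431), and the kinase JAK2 of 11.1 ± 1.18 and 14.9 ± 1.3 CPM (SD, n = 3; log2 fold change 0.42, adjusted p = 0.0434). The lambda receptor IFNLR1 was called higher but held 0.375, 0.194 and 0.25 CPM across the controls, 0.303 CPM for overexpressing replicate 1 and 2.31 and 2.43 CPM for replicates 2 and 3, the libraries with the high B cell markers. Its log2 fold change was 0.15 (adjusted p = 0.947) with overexpressing replicate 1 alone. These 3 calls were each lost without control replicate 1 (adjusted p = 0.135 for IFNGR1, 0.0511 for JAK2 and 0.081 for IFNLR1), without control replicate 2 (0.117, 0.152 and 0.124) and without overexpressing replicate 2 (0.149, 0.154 and 0.114). The IFNGR1 and JAK2 calls were also lost without overexpressing replicate 1 (0.0796 and 0.105), the IFNGR1 and IFNLR1 calls without overexpressing replicate 3 (0.0613 and 0.109), and the JAK2 and IFNLR1 calls without control replicate 3 (0.0899 and 0.0972).

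Among the 12 STATs and IRFs outside the set, 11 were tested, and 5 were higher (45.5%, beside 14.2% of all genes) and 1 lower (9.09%, beside 9.94%). IRF8, the interferon regulatory factor of the monocyte and dendritic lineages, held 78.6, 80.7 and 79.7 CPM across the controls and 129, 132 and 129 CPM with CD69 (log2 fold change 0.71, SE 0.06, adjusted p = 0.000143). IRF4, a factor of the lymphoid lineages, had the largest log2 fold change of the list (2.94, adjusted p = 0.0378). It held 1.86, 1.55 and 1.11 CPM in control libraries, 1.21 CPM for overexpressing replicate 1 and 15 and 18.4 CPM for the other two, which were the libraries with the high B cell markers. Its call was lost without any 1 of the 5 libraries other than overexpressing replicate 1 (adjusted p = 0.0992 to 0.114), and with that library alone its log2 fold change was -0.31 (adjusted p = 0.739). The cytokine-activated STAT5A and STAT3 rose by 0.62 and 0.39 on the log2 scale (adjusted p = 0.000776 and 0.00807). STAT6 was lower (log2 fold change -0.2, adjusted p = 0.0383), a call lost on leaving out control replicate 1 or 2, or any overexpressing library (adjusted p = 0.0835 to 0.12).

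Of 19 nucleic acid sensors and adaptors, 18 were tested, with 3 higher and 3 lower (16.7% each, beside 14.2% and 9.94% of all genes). MAVS, the mitochondrial adaptor of the RNA sensors, held 113, 113 and 105 CPM across the controls and 234, 242 and 212 CPM with CD69, a 2.08-fold rise (log2 fold change 1.06, SE 0.07, adjusted p = 7.96e-05). MAVS lies on chromosome 20, where the median over 394 tested coding genes was 0.37 on the log2 scale and 183 were higher and 34 lower. Over all genes the median was 0.006, with 14.2% higher and 9.94% lower. The part of chromosome position in the MAVS value was not tested. TRAF3, another adaptor, and the DNA sensor IFI16 rose by 0.29 and 0.35 on the log2 scale (adjusted p = 0.0112 and 0.0126). The DNA sensors TLR9 and CGAS fell by 1.43 and 0.54 (adjusted p = 0.00185 and 0.0138), and the RNA helicase DHX58, itself interferon-stimulated, fell by 1.05 (adjusted p = 0.00532). The RNA sensor RIGI had a log2 fold change of 0.12 and was not called. The TRAF3 call was lost without overexpressing replicate 1 or 2 (adjusted p = 0.0526 and 0.0667), that of IFI16 without overexpressing replicate 2 (0.0593) and that of CGAS without control replicate 1 (0.0523).

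Of 14 brakes on the pathway, 3 were higher and none lower, so 21.4% were called, beside 24.1% of all genes. The MHC class I regulator NLRC5, the phosphatase PTPN1 and the STAT inhibitor PIAS1 rose by 0.47, 0.35 and 0.41 on the log2 scale (adjusted p = 0.00678, 0.0113 and 0.0208). PTPN1 also lies on chromosome 20, where the median of 0.37 was close to its own value, and the part of position in it was not tested. The feedback inhibitors SOCS1 and SOCS3 held 1.12 to 2.75 CPM and were not called. The PTPN1 and PIAS1 calls were lost without overexpressing replicate 2 (adjusted p = 0.0607 and 0.0782), and that of PIAS1 without control replicate 2 (0.0556).

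A further 49 interferon-stimulated genes outside the set gave 5 higher and 5 lower of 45 tested, so 22.2% were called, beside 24.1% of all genes. UBA7 and UBE2L6, which activate ISG15 and carry it to the ligase HERC5, both rose. UBA7 held 19.3, 19.1 and 22.1 CPM across the controls and 37.6, 39.3 and 38.8 CPM with CD69 (log2 fold change 0.94, SE 0.09, adjusted p = 0.00028). UBE2L6 held 41.4, 45.0 and 45.3 CPM across the controls and 72.7, 73.6 and 80.5 CPM with CD69 (log2 fold change 0.78, SE 0.07, adjusted p = 0.000315). CD38, an NAD-consuming surface enzyme, rose 2.87-fold (adjusted p = 0.000481). HSH2D, an SH2-domain adaptor that shares exons with RAB8A, was 4.24-fold higher in the controls (adjusted p = 4.03e-06). WARS1, the tryptophanyl-tRNA synthetase, was 2.29-fold higher in the controls (adjusted p = 2.45e-05), and TRIM14, an adaptor at MAVS, fell by 0.47 on the log2 scale (adjusted p = 0.00297).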

How the data were processed

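The authors deposited 1 table of counts per Ensembl gene for 6 libraries. Per the submitters' processing notes, FastQC, fastp, STAR and featureCounts (Subread) were run with GRCh38 (hg38). Libraries were strand-specific per the labels, but the counting's strand setting, its unit, its annotation and the tools' versions are not stated there. The deposited numbers were handled as estimated counts: all are whole, yet in control replicate 1 a value of 4 occurred in 1496 genes and a value of 3 in 777, so a fragment may weigh about 4 counts and depth is then overstated by the totals.

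Of 61806 genes, 61757 had a symbol. Positions and merged exon lengths of all 39 members came from GENCODE release 29 (GRCh38). Of the members, 5 share exons with a gene on their strand and 10 overlap exons on the opposite strand. Within groups, no pair of libraries was as alike as sampling alone would make them (chi-square over its degrees of freedom 2.45 or more, after dividing counts by 4).

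Genes were filtered by filterByExpr, scaled by TMM and tested by glmQLFit and glmQLFTest (edgeR 4.0.16 under R 4.3.3). Tests were two-sided, and p-values were adjusted by Benjamini-Hochberg over 19485 genes with a threshold of 0.05. CPM use TMM factors. Alternatives were RLE, upper-quartile and no factors, no filter, 50 counts in 3 libraries, DESeq2 1.42.0, a replicate block, each library left out, counts divided by 4, and overexpressing replicate 1 alone. Their use for CD69, IRF4 and the pathway genes was chosen after seeing the data. In simulated counts for 18838 genes of this comparison, the test called 12.5% of log2 changes of 0.5, 58.3% of 1, 54.2% of 1.5, 72.9% of 2 and 92% of 3. No change was set in 18645 of these genes, and each size of change was set in 24 to 48 genes. In the data themselves 24.1% of genes were called, so the adjustment was stricter in the simulation. Its shares therefore need not hold for this comparison. Neighbour ratios used exact permutation (scipy 1.17.1).

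Every member is named, with library values for those called and the 3 largest differences not called, and up to 3 genes per direction of each pathway list. The members and lists were chosen with earlier results of these data known. IRF4, RIGI, SOCS1, SOCS3, DTX3L and PRAL, the markers named singly, and further members' library values were chosen after their values were seen. Of the other marker lists, that of plasmacytoid dendritic cells summed to 8.53 to 15.3 CPM, but 48.5 and 47.9 CPM in overexpressing replicates 2 and 3. There TCF4 (41.1 and 40.2 CPM) and SPIB (5.76 and 6.54 CPM) made up nearly all of it. CLEC4C, LILRA4 and GZMB held at most 0.214 CPM in any library, and IL3RA was not called. The sums were 54.6 to 119 CPM for T and NK cells (nearly all NKG7) and 304 to 333 CPM for monocytes (mostly LYZ).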

Additional observations from a re-analysis of the deposited data

How the results depend on the processing

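Deviations from the group means of same-numbered libraries correlated only weakly, at -0.0331, 0.052 and 0.0714. Control replicate 1 correlated best with overexpressing replicate 2 (0.0496). Control replicates 2 and 3 each correlated best with the overexpressing library of the same number. These values do not settle whether the replicate numbers pair the libraries, and the main fit used no pairing. With the replicate number as a block, 9 members were higher and 12 lower, and 21 pathway genes were higher and 15 lower. The calls of IFNLR1 and IRF4 were lost with the block (adjusted p = 0.104 and 0.124). Leaving out 1 library gave 3 to 5 members higher and 4 to 10 lower, a median log2 fold change of -0.32 to -0.22, and 9 to 17 pathway genes higher and 6 to 13 lower, against 18 and 10 with all libraries. Without a filter 3 members were higher, and DESeq2 gave 11 lower. Overexpressing replicate 1 alone against the controls, where the lone library is assumed to vary like the controls, gave 2 members higher and 1 lower, a median of -0.2, and 5 pathway genes higher and 3 lower. The cause of these changes was not tested, beside the fewer libraries or the larger number of genes tested. Over single genes and settings, 812 of 941 values kept their side of the threshold, 104 lost a call and 24 gained one, and the sign of 1 called value, that of IRF4, changed (log2 fold change -0.31 with overexpressing replicate 1 alone). SAMD9, IFI35 and XAF1 kept their call in all 15 alternatives. In the simulated counts 12.5% of log2 changes of 0.5 were called, but far fewer genes were changed there than were called here. That share need not hold for these data. Of members near that size, BST2 was called and PARP9 was not (log2 fold change 0.49 for each), so such differences could be missed.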
